A study of Bos taurus with 14 samples.

Results

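The let-7 family was described in the small RNA of milk small extracellular vesicles (sEVs), the membrane particles that cells release into milk. Its members were taken by name, as every entry of the deposited table whose miRNA name starts with let-7. This gave 13 of the 350 miRNA/precursor pairs, which combine 9 of the 268 mature miRNA names with 11 of the 304 precursors. The table writes the mature names with the prefix bta for cattle, as bta-let-7b, bta-let-7a-5p, bta-let-7c, bta-let-7f, bta-let-7g, bta-let-7i, bta-let-7d and bta-let-7e, and lists in addition the opposite arm let-7a-3p. The prefix is left out below. Of the 13 pairs, 11 had at least 10 counts over all cows, and the remaining 2, both of let-7a-3p, did not.

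The vesicles came from 14 lactating Holstein cows with subclinical mastitis, an udder inflammation without visible signs, and no cow without mastitis was included. All cows ate the same total mixed ration. The 7 cows of the inulin group also received 300 g/d of inulin, a plant fiber used as a prebiotic, for 5 wk after 1 wk of adaptation, and the 7 cows of the control group received none. From each cow, milk of the last day was mixed over its milkings and sequenced as 1 library.

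The let-7 miRNA are among the most conserved miRNA of animals. Mature let-7 miRNA are cut by Dicer from hairpin precursors, of which a member can have more than 1. The protein LIN28 can block this step for let-7 hairpins. The members share the same seed, the short 5ʹ stretch that pairs with target messenger RNA, and so are predicted to bind overlapping targets, among them RAS, HMGA2 and MYC transcripts. They are known for holding back proliferation and favoring differentiation, and they are abundant in milk vesicles. The remaining bases differ little between members, so that reads of close members can be difficult to tell apart. How many reads were assigned to a close relative was not tested.

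The unit of the table is the read count per miRNA/precursor, and each precursor of the same mature miRNA has an entry of its own. All shares and ratios below count each mature miRNA at its most counted precursor only, so that reads listed at several of its precursors count once. Different mature names with equal counts, such as miR-2284x, miR-2284y and miR-2285av, each stay in the total. On this basis a cow had between 3128 and 233926 counts, the lowest in control cow 2 and the highest in control cow 5. Of 9 miRNA fixed as markers of milk and mammary epithelium all were listed and 5 were found in all 14 cows, but miR-148a, usually abundant in milk, had 72 counts in 9 cows. The summed share of these markers ranged from 0.639% to 5.16% of the miRNA counts among control cows and from 1.39% to 2.71% among inulin cows. Of 7 leukocyte markers 6 were listed, at a summed share of at most 0.153% in any cow, and of 3 red blood cell markers only miR-486 was listed, with 5 counts. In these bulk samples, fewer vesicles of a source and less RNA per vesicle cannot be told apart.

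The let-7 family made up most of the miRNA counts in 12 of the 14 cows, and its share differed widely between cows of the same diet. Among control cows the share ranged from 27.8% in control cow 4 to 82.1% in control cow 7, with a median of 58.4%. Among inulin cows it ranged from 50.5% in inulin cow 5 to 87.3% in inulin cow 2, with a median of 83.1%. The groups overlapped, and 6 of 7 inulin cows lay above the control median. Here the mean was 58.4% ± 21.1 (SD, n = 7) among control cows and 73.3% ± 15.1 (SD, n = 7) among inulin cows. The difference of 14.8 percentage points (standard error 9.79) was not separated from those of other splits of the cows (exact permutation test over all 3432 assignments, two-sided, p = 0.154). Counting error was small beside this spread. In the shallowest library, control cow 2, the share was 34.7% with a 95% Wilson interval from 33.0% to 36.3%.

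**Figure D1:**
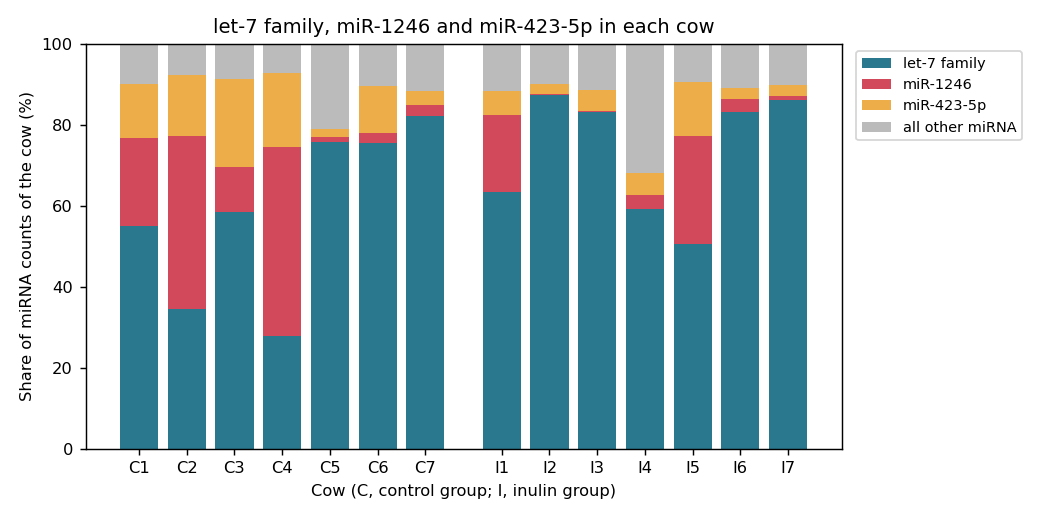
Share of the miRNA counts of each cow (%, stacked bars, 1 precursor per mature miRNA) taken by the let-7 family, miR-1246, miR-423-5p and all other miRNA. Control cow 4, with the shortest let-7 bar at 27.8%, has 46.7% miR-1246, whereas inulin cow 4, at 59.2% let-7, has 3.35% miR-1246 and 32.0% other miRNA.

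Among the other miRNA, miR-1246 ran most strongly against the let-7 share. Control cow 4, with the lowest let-7 share, had 46.7% miR-1246 and 18.4% miR-423-5p. Inulin cow 2, with the highest, had 0.218% and 2.56%. Inulin cow 4 was an exception, with 59.2% let-7 beside 3.35% miR-1246, 5.45% miR-423-5p and 32.0% of all other miRNA. Over the 23 other mature miRNA found in all 14 cows, the lowest Spearman correlations with the let-7 share were those of miR-1246 (rho = -0.94), miR-423-5p (rho = -0.85) and the set of miR-2284x, miR-2284y and miR-2285av (rho = -0.59), which have equal counts. The highest were those of miR-30a-5p (0.83), miR-98 (0.77) and miR-151-5p (0.74). These values over 14 cows are a description, since all shares are parts of the same total and a rise of one lowers the others. Taken as a share of the counts outside the family, which let-7 does not enter, miR-1246 kept a rho of -0.86 with the let-7 share, but miR-423-5p had -0.26 and the miR-2284x set turned to 0.38. On that scale miR-30a-5p had 0.90, miR-98 0.91 and miR-151-5p 0.99. High values there were not particular to them, since miR-200c and miR-26a also had 0.90 and miR-30d 0.88, whereas miR-184 had 0.23. The counts outside the family, miR-1246 among them, are also part of the total behind the let-7 share, so this scale is not independent of it. With miR-1246 left out of the total, let-7 made up 69.6% ± 11.0 (SD, n = 7) among control cows and 78.9% ± 10.1 (SD, n = 7) among inulin cows. With miR-423-5p left out as well, a choice made after seeing the data, the means were 83.9% ± 3.94 and 84.2% ± 8.79 (SD, n = 7 each), a difference of 0.374 percentage points (exact permutation test, p = 0.946).

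Within the family, let-7b and let-7a-5p carried most of the counts in every cow. Together they made up 82.5% ± 3.18 (SD, n = 7) of the let-7 counts among control cows and 83.4% ± 5.06 (SD, n = 7) among inulin cows. The lowest sum was 73.6% in inulin cow 4 and the highest 88.2% in inulin cow 3. The 4 least abundant members, let-7g, let-7i, let-7d and let-7e, together made up 3.76% ± 1.26 among control cows and 3.15% ± 0.517 among inulin cows (SD, n = 7 each). Read as an effective number, the exponential of the Shannon entropy of the shares, the family held 3.49 ± 0.169 equally frequent members among control cows and 3.37 ± 0.186 among inulin cows (SD, n = 7 each; exact permutation test, p = 0.216).

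**Figure D2:**
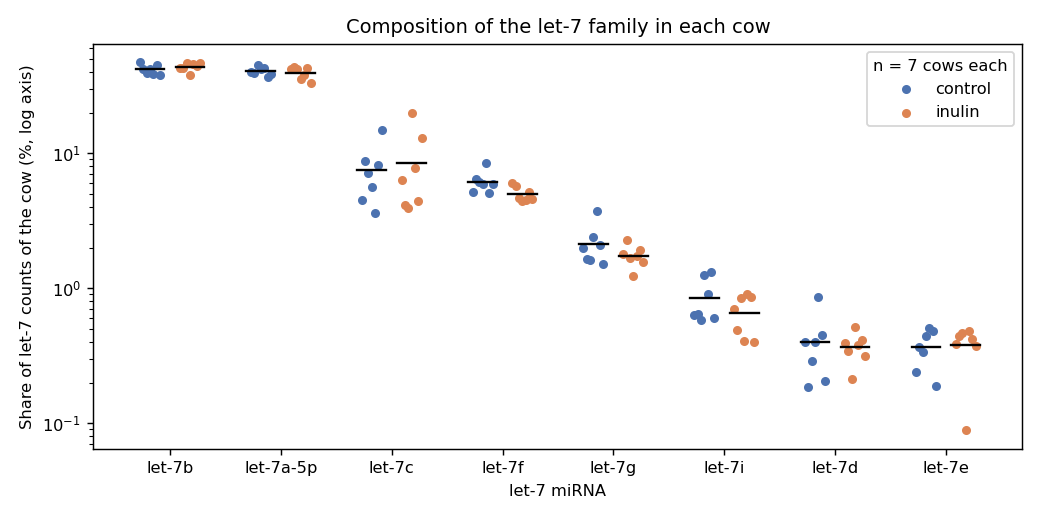
Share of the let-7 counts of a cow (%, log axis) for each of the 8 members, with 1 point per cow and a line at the mean of the group (n = 7 each). The 6 most abundant members lie in the same order of mean share in both groups, let-7d and let-7e change places, and let-7c is spread from 3.61% to 19.7%.

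By mean share let-7b came first and let-7a-5p next, followed by let-7c and then let-7f, and at the lower end let-7g, let-7i, let-7d and let-7e. Neighbors in this order were compared within cows with an exact permutation test that flips the sign of the log2 ratio of each cow, with adjustment over the 7 comparisons. The count of let-7b exceeded that of let-7a-5p in 10 of 14 cows, by a mean of 0.10 on the log2 scale (SD 0.18; exact permutation p = 0.0669, adjusted p = 0.0937), so these neighbors were not separated. With each cow left out, this mean ran from 0.07 without inulin cow 7 to 0.12 without control cow 3. Without control cow 3 or control cow 5, which had let-7b below let-7a-5p, the unadjusted exact permutation p was 0.0205 or 0.0308. The lead of let-7a-5p over let-7c was 5.74-fold and held in 14 of 14 cows (exact permutation p = 0.000122, the smallest this test can give, adjusted p = 0.000285). The next neighbors, let-7c and let-7f, changed places between cows, with let-7c higher in 8 of 14 (exact permutation p = 0.179, adjusted p = 0.209). In all 14 cows let-7f was above let-7g, by 2.93-fold, and let-7g above let-7i, by 2.64-fold (exact permutation p = 0.000122 and adjusted p = 0.000285 for each). In 13 of 14 cows let-7i was above let-7d, by 1.97-fold (exact permutation p = 0.000366, adjusted p = 0.000641). At the lower end let-7d and let-7e were not separated, with let-7d higher in 5 cows (exact permutation p = 0.863).

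The leading members let-7b and let-7a-5p differed by at most 0.29 on the log2 scale in 13 of 14 cows, and by 0.48 in inulin cow 7. Their precursors let-7b and let-7a-3 lie within 10 kb of each other in the RefSeq gene table, whose assembly is a later one than that of the files and which is used here for neighbors only, whereas let-7a-5p can also come from let-7a-1 and let-7a-2, which lie elsewhere. The share of let-7b in the sum of both ranged from 46.5% in control cow 3 to 58.2% in inulin cow 7. The 95% Wilson intervals at these cows ran from 45.9% to 47.2% and from 57.7% to 58.8%. As a share of the let-7 counts, let-7a-5p had a lowest value of 37.0%, a median of 40.0% and a highest value of 44.8% among control cows, against 33.3%, 41.9% and 43.4% among inulin cows. For let-7b these values were 38.2%, 42.3% and 47.1% among control cows, and 38.2%, 44.3% and 46.5% among inulin cows. The groups overlapped for both members. The log2 ratio of let-7b to let-7a-5p was 0.04 ± 0.18 (SD, n = 7) among control cows and 0.15 ± 0.17 (SD, n = 7) among inulin cows. The groups were not separated by the test (exact permutation p = 0.259, adjusted p = 0.944 over 28 ratios).

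This ratio varied less between cows than that of any other pairing among the 29 distinct count sets found in all 14 cows. Its SD on the log2 scale was 0.18, rank 1 of 406 ratios, followed by let-7f to let-7a-5p with 0.21 and let-7g to let-7f with 0.27. Over the 28 ratios within the family the median SD was 0.55, against 1.36 over the 210 ratios without a let-7 member. Counting noise is smaller at higher counts, and let-7 members have most of the counts, so this is a description of these libraries and not a test. Within the family, the ratio of let-7c to let-7b had rank 111. On another measure, the SD of the log2 share of a single miRNA, miR-1246 was highest with 2.54 at 134248 counts. Why the let-7 ratios varied little was not tested.

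The member that set cows apart was let-7c, which lies beside mir-99a in the RefSeq gene table and differs from let-7a-5p and let-7b by few bases. Its share of the let-7 counts had a lowest value of 3.61%, a median of 7.12% and a highest value of 14.9% among control cows. Among inulin cows the same values were 3.92%, 6.38% and 19.7%. Control cow 7, inulin cow 4 at 19.7% and inulin cow 7 stood above all other cows, so both diets had high and low cows. The mean was 7.53% ± 3.77 (SD, n = 7) among control cows and 8.48% ± 5.87 (SD, n = 7) among inulin cows. The difference of 0.946 percentage points did not pass the test (exact permutation p = 0.744, adjusted p = 0.885 over 8 members). Its sign rested on inulin cow 4, without which the difference was -0.927. In inulin cow 4 let-7c had 1112 counts, and the 95% Wilson interval of its share ran from 18.7% to 20.8%.

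As a share of all miRNA counts, let-7c shared little of the pattern of the other members over cows. The Spearman correlation of its share with that of let-7a-5p was 0.15 over 14 cows, whereas let-7f, let-7g and let-7b had 0.94, 0.93 and 0.87 with let-7a-5p. These correlations are a description, since the members share the library and its total.

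The counts of its neighbor miR-99a-5p stood in no fixed ratio to those of let-7c. Over all cows 38087 counts of let-7c stood against 641 of miR-99a-5p, of which 352 were in control cow 5. In control cow 7 and inulin cow 4, both with a high let-7c share, miR-99a-5p had 0 counts beside 1669 and 1112 counts of let-7c. A count of 0 allows up to 0.180 and 0.270 counts of miR-99a-5p per 100 of let-7c there, with 3 counts as the smallest detectable number. In inulin cow 7, the other cow with a high let-7c share, 25 counts of miR-99a-5p stood beside 5012 of let-7c, or 0.499 per 100. In the 11 cows with any count, miR-99a-5p ranged from 0.466 to 5.51 per 100 counts of let-7c. In control cow 2, which also had 0 counts, the limit of 3.16 per 100 was too high to set this cow apart.

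**Figure D3:**
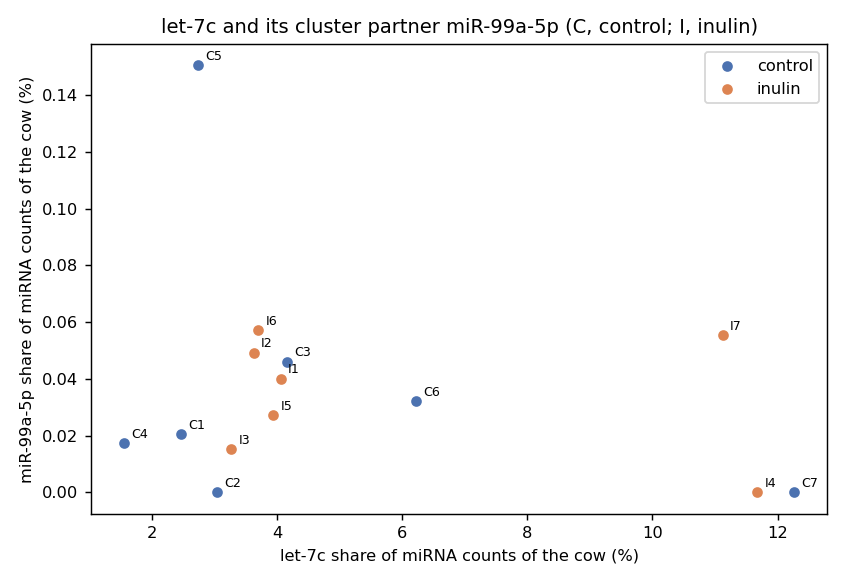
Share of the miRNA counts of a cow (%) taken by miR-99a-5p against that of let-7c, with 1 labelled point per cow. Control cow 7 and inulin cow 4 lie at the right with 0 counts of miR-99a-5p, and control cow 5 lies at the top left with 352.

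For let-7f, the ratio to the leading members was lower among inulin cows, but not after adjustment. Its share of the let-7 counts had a lowest value of 5.10%, a median of 5.92% and a highest value of 8.48% among control cows, against 4.41%, 4.65% and 6.03% among inulin cows. Control cow 5 stood highest, and 6 of 7 inulin cows were below the median of the control group, although the groups overlapped. The means were 6.16% ± 1.14 and 5.02% ± 0.651 (SD, n = 7 each), a difference of -1.14 percentage points (exact permutation p = 0.0268, adjusted p = 0.214 over 8 members). The log2 ratio of let-7f to let-7a-5p was -2.74 ± 0.21 (SD, n = 7) among control cows and -2.98 ± 0.13 (SD, n = 7) among inulin cows. This difference of -0.24 had the smallest p of the 28 ratios (exact permutation p = 0.0163, adjusted p = 0.432). With each cow left out in turn it stayed between -0.28 and -0.18, at unadjusted exact permutation p-values from 0.00874 to 0.0373. The ratio of let-7f to let-7b had a difference of -0.36 (exact permutation p = 0.0309, adjusted p = 0.432), and all 7 inulin cows were below the median of the control group. With each cow left out it had an unadjusted exact permutation p of up to 0.0682, at or above 0.05 in 7 of 14 cases, and the let-7f share one of up to 0.0554, at or above 0.05 in 5. As centred log2 ratio, the let-7f share had an unadjusted exact permutation p of 0.141. Of the 28 ratios, 2 had an unadjusted exact permutation p under 0.05 and 0 an adjusted one. Among the 8 shares these numbers were 1 and 0. Control cow 5 weighed most on them. Without it the difference in the let-7f share was -0.758 percentage points, and that in the ratio of let-7g to let-7b, the third smallest p (exact permutation p = 0.107, adjusted p = 0.763), moved from -0.33 to -0.16.

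**Figure D4:**
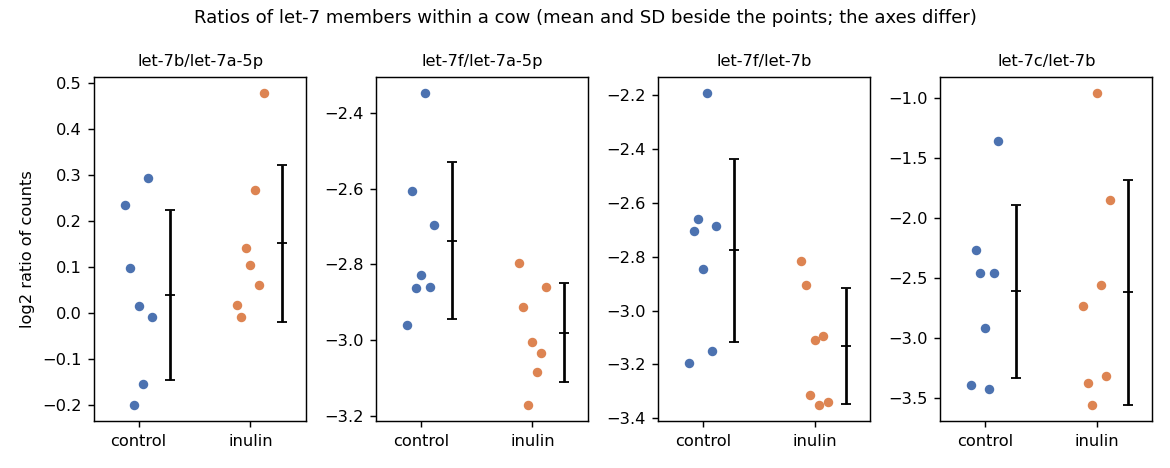
Log2 ratio of counts between members within each cow, with 1 point per cow and the mean and SD of the group beside the points (n = 7 each). The let-7f to let-7a-5p ratios of the inulin group lie lower, with a mean of -2.98 against -2.74, and overlap those of the control group.

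The 4 least abundant members also overlapped between diets. The share of let-7g in the let-7 counts was 2.14% ± 0.766 among control cows and 1.75% ± 0.327 among inulin cows (SD, n = 7 each; exact permutation p = 0.244, adjusted p = 0.528). The share of let-7i was 0.851% ± 0.319 and 0.658% ± 0.221 (SD, n = 7 each; exact permutation p = 0.222, adjusted p = 0.528). For let-7d, which lies beside let-7a-1 and let-7f-1 in the RefSeq gene table, it was 0.399% ± 0.229 and 0.368% ± 0.0925 (SD, n = 7 each; exact permutation p = 0.807, adjusted p = 0.885). For let-7e, which lies beside mir-99b and mir-125a, it was 0.368% ± 0.122 and 0.379% ± 0.134 (SD, n = 7 each; exact permutation p = 0.885). Depth limited the lowest of these values. In control cow 2 let-7d had 2 counts and let-7e 4, and in inulin cow 4 let-7e had 5, where the 95% Wilson interval of its share of 0.0886% ran from 0.0379% to 0.207%.

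The precursors of a mature let-7 miRNA had nearly the same counts. The 3 precursors of let-7a-5p, let-7a-1, let-7a-2 and let-7a-3, had 281730, 281660 and 281751 counts over all cows, and in a single cow they differed by at most 0.233%. The counts of let-7f at let-7f-1 were 95.6% ± 3.00 of those at let-7f-2 among control cows and 96.4% ± 1.21 among inulin cows (SD, n = 7 each; exact permutation p = 0.491), with the lowest value, 91.1%, in control cow 6 and equal counts in control cow 2. At let-7f-2, which lies beside mir-98 within HUWE1, 42011 counts were listed in all, and 40692 at let-7f-1. In no cow was the count at let-7f-1 above that at let-7f-2, and the cause was not tested. Reads of the mature sequence fit each of its precursors, so these values do not show which locus was transcribed.

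For let-7a, only 1 arm of the hairpin was found in number. The opposite arm let-7a-3p had 1 count in all, in control cow 5, listed at both let-7a-1 and let-7a-3. This is 0.000355% of the let-7a-3p and let-7a-5p counts at let-7a-3, with a 95% Wilson interval from 6.27e-05% to 0.00201%. No opposite arm of another let-7 miRNA is listed in the table, so the arms of those hairpins could not be compared. Intervals here cover counting error only.

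Across all pairs, no let-7 pair passed the rule of the study, which asks for an absolute log2 fold change above 1 at an unadjusted P under 0.05. The quasi-likelihood test of edgeR was fitted to the 210 pairs with at least 10 counts, and 0 of the 11 let-7 pairs tested passed, where 9.05% of all pairs did. At an adjusted p under 0.05, 0 of the 210 pairs passed. With DESeq2, 0 of 11 let-7 pairs passed, against 4.29% of all pairs. So few pairs, several of which hold the same reads, cannot be told apart from either share. At an unadjusted p under 0.05 alone, 0 let-7 pairs were found with edgeR and 0 with DESeq2, and 1 with limma-voom, let-7b. Of all 210 pairs, 19, 10 and 15 were found with these tools. The smallest edgeR p in the family was also that of let-7b, at 0.39 on the log2 fold change scale, with a standard error of 0.21 (edgeR adjusted p = 0.69). For let-7a-5p it was 0.29 at each precursor (standard error 0.23, adjusted p = 0.914 from edgeR), for let-7c 0.42 (standard error 0.36) and for let-7e 0.37 (standard error 0.52). The values of let-7d, let-7f, let-7g and let-7i lay between -0.05 and 0.06.

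Relative to the other miRNA, the let-7 pairs lay toward the inulin side in the edgeR fit. The median log2 fold change was 0.29 over the 11 let-7 pairs and -0.40 over all 210, and 9 of 11 were above 0, where 30% of all pairs were. The pairs are not separate measurements, since 3 hold the reads of let-7a-5p and 2 those of let-7f. The scale decided the signs of the smaller values. With TMMwsp scaling the median of all pairs moved to 0.07 and that of let-7 to 0.76, all 11 above 0, and relative to all pairs the let-7 median was 0.69 with both scalings. This offset was not fixed. It was 0.24 with filterByExpr, which kept 62 pairs, 0.30 without control cow 4, and 0.98 with limma-voom. With the size factors of DESeq2 7 of 11 were above 0, and let-7f turned negative. With both of these scalings, with the total count and with the counts outside the family as scale, the values of let-7b, let-7a-5p, let-7e, let-7d and let-7c stayed above 0.

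**Figure D5:**
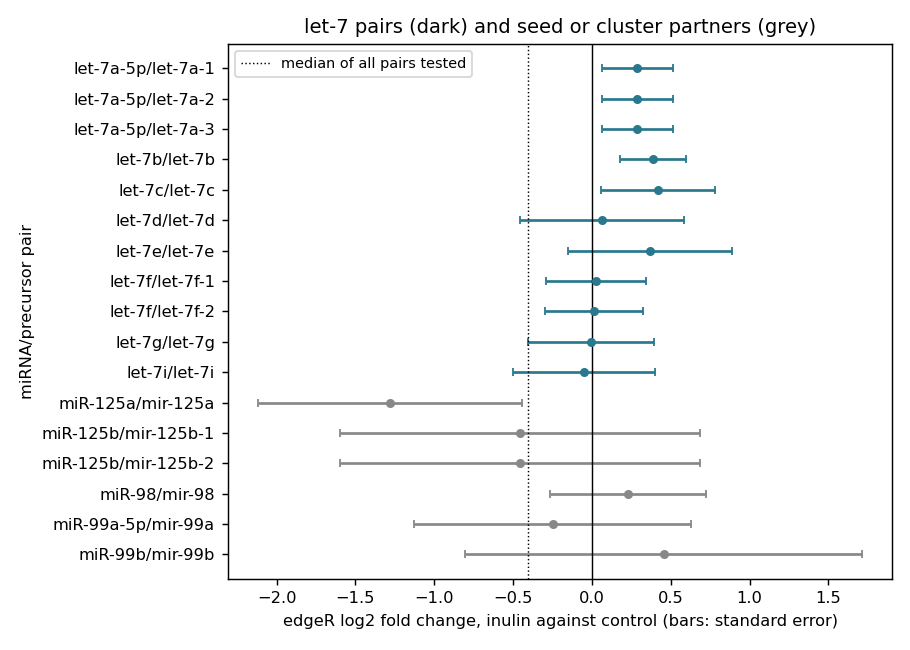
Log2 fold change between the inulin and control groups from edgeR with its standard error (x axis) for the 11 let-7 pairs tested (dark) and 6 pairs of related miRNA (grey). All let-7 values lie between -0.05 and 0.42, to the right of the median of all pairs at -0.40 (dotted line).

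The miR-98 miRNA has the seed of let-7 but another name. It was found in all 14 cows with 1911 counts, at 0.166% ± 0.0721 of the miRNA counts among control cows and 0.196% ± 0.0673 among inulin cows (SD, n = 7 each; exact permutation p = 0.422). In the edgeR fit miR-98 differed by 0.23 on the log2 scale, with a standard error of 0.50 (edgeR adjusted p = 0.985). Beside let-7f at the neighboring precursor let-7f-2, miR-98 had a median of 5.08 and a highest value of 7.63 counts per 100 counts of let-7f. The lowest value above the 3-count limit was 3.03, in inulin cow 7, and control cow 2 had 2 counts of miR-98, under that limit.

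The other miRNA that lie near let-7 precursors in the RefSeq gene table had fewer counts over all cows than the let-7 member beside them. Over all cows let-7e had 13.5 times the counts of miR-125a and 48.6 times those of miR-99b. Single cows differed, and deep libraries carry these sums. Per 100 counts of let-7e, miR-125a ranged from 0 in inulin cow 4 to 43.1 in control cow 1, where 28 counts stood beside 65. Beside 281660 counts of let-7a-5p at let-7a-2, which may include reads from the other let-7a loci, miR-100 had 5. Near let-7b, miR-2443 had 8 counts. Of the pairs of miR-98, miR-99a, miR-99b, miR-100, miR-125a, miR-125b and miR-2443, 6 of 9 had enough counts for the edgeR test. The entries of miR-125b at mir-125b-1 and mir-125b-2 have equal counts. The rule was passed by 0 of the 6 and by 9.05% of all pairs, and so few pairs cannot be told apart from that share. The lowest of the 6 was miR-125a, at -1.28 on the log2 scale with a standard error of 0.84 (edgeR adjusted p = 0.898).

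Among the 29 count sets found in all 14 cows, the let-7 members took ranks from 2 to 18 by their variation between cows. As log2 of the share of miRNA counts, the SD over 14 cows was 0.51 for let-7a-5p, 0.52 for let-7b and 0.53 for let-7f, ranks 2 to 4 from the lowest, after miR-151-5p with 0.46. It was 0.62 for let-7i, 0.63 for let-7g and 0.80 for let-7d. The highest values of the family were 0.86 for let-7e and 0.89 for let-7c, where the highest share was 7.90 times the lowest. The SD of miR-1246 was 2.54.

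No relation of the family to sequencing depth passed the test. Over 14 cows the let-7 share had a Pearson r of 0.163 with the log10 of the total count (permutation p = 0.575, adjusted p = 0.858 over 3 relations) and a Spearman rho of 0.0813 (permutation p = 0.785, adjusted p = 0.989). With the 2 cows of most extreme depth, control cow 2 and inulin cow 4, left out, r was -0.297, and without control cow 2 alone it was -0.176. Among control cows r was 0.075 and among inulin cows 0.157 (exact permutation p = 0.87 and 0.729, n = 7 each). The log2 ratio of let-7b to let-7a-5p had r of -0.243 (permutation p = 0.404, adjusted p = 0.858) and rho of -0.345 (permutation p = 0.229, adjusted p = 0.687), and r was -0.345 without those 2 cows. The log2 ratio of let-7f to let-7a-5p had r of 0.0529 (permutation p = 0.858, adjusted p = 0.858) and rho of 0.00659 (permutation p = 0.989, adjusted p = 0.989), and r was 0.311 without those 2 cows. Its sign depended on single libraries, with r of 0.357 without control cow 2 and -0.352 without control cow 5, the deepest library.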

How the data were processed

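Milk sEVs of 14 cows, 7 per group, were isolated by the authors and their small RNA was sequenced, with 1 library per cow. The authors quantified known bovine miRNA with miRDeep2 and deposited, per miRNA/precursor, raw read counts and counts normalized to the library total (RPM). The labels name the genome build ARS-UCD 1.2. The number of mismatches allowed when reads were assigned is not given in the sources used here. The deposited RPM differed from values recomputed on the column totals by at most 0.00500 and were not used further. The deposited length of each mature miRNA (another unit, in bases) was read for the list of members only. The column meant for sequences holds none, so a comparison of member sequences was not made. No molecular identifiers were counted, so intervals cover counting error only.

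The deposited counts per cow and miRNA/precursor were the start of all values. Shares used the precursor with the most counts for each mature miRNA, and log2 ratios had 0.5 added to each count. Shares and ratios were compared between groups with two-sided exact permutation tests over 3432 assignments (smallest possible p = 0.000583), adjusted by Benjamini-Hochberg within 8 members and 28 ratios. Pairs were compared by quasi-likelihood fits in edgeR 4.0.16 (R 4.3.3, TMM scaling) to pairs reaching 10 counts in total and read by the rule of the study (absolute log2 fold change above 1, unadjusted P under 0.05), and DESeq2 1.42.0 and limma-voom (limma 3.58.1) were alternatives. Relations to depth used 100000 permutations. The edgeR, DESeq2 and limma-voom fits were tested on simulated counts. Neighbors within 10 kb were read from the RefSeq gene table of assembly ARS-UCD2.0, where 11 of 11 let-7 precursors matched. No coordinates were taken from it. The ratios given in full are the 3 with the smallest p.

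None of the 91 pairings of cows agreed within sampling noise. Cows of the same number in each group were different animals, and the correlation of their deviations was above 0.1 for 1 of 7 numbers, from -0.273 to 0.234, so the numbers do not pair cows. The members and lists were chosen with earlier results of these data known.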

Additional observations from a re-analysis of the deposited data

Results flagged for a closer look

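In each group of 7 cows the gap of the highest and lowest value to its nearest neighbor was set against the range of the group. Of 32 such groups 5 held a cow that stood apart, where chance alone would give about 1.6 if the groups were separate. They are not, since the shares and ratios are formed from the same counts, so 5 cannot be weighed against 1.6. Control cow 5, the deepest library, held 4 of these values. Its let-7d share of the let-7 counts was 0.863%, next to 0.454% in the following control cow. Its let-7f share was 8.48%, next to 6.46%, and its let-7g share 3.74%, next to 2.40%. Its log2 ratio of let-7g to let-7b was -3.37, next to -4.14. Inulin cow 4 had a let-7e share of 0.0886%, the lowest of its group, where the next was 0.371%, and this value rests on 5 counts.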

How the results depend on the processing

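The difference in the let-7 share of the miRNA counts ran from 9.74 to 18.8 percentage points with each cow left out. Without miR-1246 and miR-423-5p in the total it was 0.374 (exact permutation p = 0.946). Both were left out after seeing that they ran against the let-7 share in these same cows. A smaller gap was therefore likely from the choice itself, and the source of the gap was not tested. The counts of let-7 pairs past the rule and of shares and ratios at an adjusted p under 0.05 were 0 in all settings tried. With the replicate block, which pairs cows by a number only, the difference in share was 14.8 (exact permutation p = 0.156), the unadjusted exact permutation p was 0.0938 for the let-7f share, 0.0469 for let-7f to let-7a-5p and 0.125 for let-7f to let-7b, and 7 of 210 pairs passed the rule, against 19 without it. Without the filter on low counts 75 of 350 passed, and with filterByExpr 3 of 62. In all, 9 pairs passed with DESeq2.

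At an unadjusted p under 0.05 alone, edgeR found 4 let-7 pairs with TMMwsp, with filterByExpr and without control cow 3. Of all pairs, 24 of 210, 8 of 62 and 21 of 205 were found there. The let-7 pairs were let-7b and the entries of let-7a-5p at its precursors, which hold the same reads. Without inulin cow 2 or inulin cow 4 edgeR found 1, let-7b, where 17 of 206 and 17 of 210 of all pairs were found. Directions turned only for values that passed no test, and the cause was not tested. As centred log2 ratio, let-7a-5p differed by 0.0701 and let-7d by 0.0853. The log2 fold change of let-7d was -0.0230 with DESeq2. That of let-7f at let-7f-1 was -0.13 with DESeq2 and with its size factors in edgeR, -0.0381 with limma-voom, -0.0435 with the total count, and -0.00500 when scaled to the counts outside the family. At let-7f-2 these were -0.14, -0.14, -0.0501, -0.0601 and -0.0294, and -0.0139 with 1 precursor per mature miRNA. That of let-7g was 0.54 with TMMwsp, 0.16 without the filter, 0.0540 with filterByExpr, 0.00613 with 1 precursor and 0.0561 with the replicate block. That of let-7i was 0.37 with TMMwsp and 0.0289 without the filter. The let-7 share against depth turned to -0.297 with control cow 2 and inulin cow 4 left out.

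With each cow left out, the difference in share ran from -0.927 to 2.18 for let-7c, from -0.0669 to 0.0462 for let-7d and from -0.0189 to 0.0594 for let-7e. Log2 fold changes ran from -0.0673 to 0.56 for let-7d, -0.11 to 0.34 at let-7f-1, -0.13 to 0.32 at let-7f-2, -0.14 to 0.37 for let-7g and -0.28 to 0.13 for let-7i. The log2 ratio of let-7d to let-7e within cows ran from -0.14 to 0.14. The correlation with depth ran from -0.176 to 0.407 for the let-7 share and from -0.352 to 0.357 for the ratio of let-7f to let-7a-5p. Depth limits let-7d and let-7e most, with 2 and 4 counts in control cow 2.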
